A study of Triticum aestivum with 24 samples.

Results

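The first day of recovery from heat was followed by setting miRNA tags in leaves sampled 1 day after treatment (1 DAT heat) against tags in leaves of the same plants sampled at the end of the stress (0 DAT heat). The comparison takes 8 of the 24 small RNA libraries of the series, those labelled heat at 1 DAT and at 0 DAT with n = 4 each, and all 202 tags of the deposited count table. The plants were hexaploid wheat (Triticum aestivum) cv Chinese Spring, raised from seed of 1 selfed plant at 18 °C in the light and 16 °C in the dark. At the boot stage, 72 plants were kept at 37 °C for 5 days with ample water and then returned to the growth conditions, so the 1 DAT heat leaves had been back at those conditions for 1 day and the 0 DAT heat leaves had not. The control plants, also 72, stayed at the growth conditions and were sampled on the same days (1 DAT control and 0 DAT control). A library holds the pooled RNA of 18 plants, and a pool number was taken to mark the same plants on each day, since all plants were sampled on each. Within the heat plants, the day of recovery and the day of collection cannot be told apart. The change in the control plants over the same day is therefore given for the called tags and for part of the other results. Heat changes printed without a control value do not separate the day of recovery from the day of collection. The label of leaf tissue cannot be checked here, as the table holds miRNA tags only.

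In plants, a miRNA is cut by Dicer-like enzymes from a hairpin precursor as a duplex of a 5p and a 3p strand, and the strand loaded into Argonaute guides the cleavage or the translational repression of matching transcripts. The strand that is not usually loaded, the star strand, is mostly found at a low level. A single precursor can give several tags that differ by their first or last bases, called isomiRs, and each was counted as a tag of its own. Conserved plant families largely target transcription factors and F-box proteins, while others act in copper, phosphate and sulfate homeostasis.

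The tags whose levels carry the results are shown first, 5′ to 3′, with bases 2 to 8 (the seed) in capitals.
miR528-1.1-5p: gCAGCAGCggtggaaggggc
miR528-1.2-5p: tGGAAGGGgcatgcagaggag
miR528-1.5-5p: gGAAGGGGcatgcagaggagc
miR528-1.3-3p: cCTGTGCCtgcctcttccatt
miR528-1.4-3p: tGCCTGCCtcttccattcctg
miR399-18-3p: tGCCAAAGgagagttgccctg
miR166-11-5p: gGAATGTTgtctggctcgggg
miR167-1-5p: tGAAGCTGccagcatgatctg
No 2 of the tags above have the same seed, and among them only the seed of miR167-1-5p occurs in further tags, all 5 with it belonging to miR167.

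All 5 miR528 tags come from 1 precursor of 119 nt, placed in IWGSC RefSeq v1.0 on chromosome 5A (chr5A:663320619-663320737, plus strand), for which the study lists no other locus. It is printed with miR528-1.1-5p and then with miR528-1.3-3p in capitals, to show where the tags with the largest changes lie on the arms.
pre-miR528-1 with miR528-1.1-5p: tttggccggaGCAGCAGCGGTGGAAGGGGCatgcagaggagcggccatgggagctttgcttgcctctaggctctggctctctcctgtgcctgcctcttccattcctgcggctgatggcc
pre-miR528-1 with miR528-1.3-3p: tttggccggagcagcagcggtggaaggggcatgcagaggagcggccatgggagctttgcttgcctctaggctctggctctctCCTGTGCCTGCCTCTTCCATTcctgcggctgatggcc
miR528-1.1-5p covers bases 11 to 30 and shares its last 10 bases with miR528-1.2-5p, which covers bases 21 to 41. miR528-1.5-5p is shifted by 1 base from miR528-1.2-5p, and the tags of the 3p arm begin at bases 83 and 87. The precursor listed for miR399-18-3p is on chromosome 2B (chr2B:596648887-596649003, minus strand) and is 1 of 3 loci with this tag. That of miR166-11-5p is on chromosome 7B (chr7B:523239721-523239914, minus strand), 1 of 6 loci. It is shown with this tag, on the 5p arm, and then with miR166-9-3p, on the opposite arm, in capitals.
pre-miR166-11 with miR166-11-5p: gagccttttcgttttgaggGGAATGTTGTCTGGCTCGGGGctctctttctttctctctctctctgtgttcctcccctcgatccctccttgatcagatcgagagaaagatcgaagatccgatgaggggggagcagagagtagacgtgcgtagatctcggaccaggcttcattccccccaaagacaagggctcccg
pre-miR166-11 with miR166-9-3p: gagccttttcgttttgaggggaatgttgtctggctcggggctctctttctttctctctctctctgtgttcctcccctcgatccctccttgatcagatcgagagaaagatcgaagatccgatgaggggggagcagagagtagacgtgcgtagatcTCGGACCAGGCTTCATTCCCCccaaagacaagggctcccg
No gene annotation of this build was used, so what else lies at these loci is not given.

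Libraries of 1 DAT heat held 127692 to 157709 miRNA reads and those of 0 DAT heat 68947 to 123731, without overlap (139157 ± 13855 and 88448 ± 24707, SD, n = 4 each, two-sided exact permutation test p = 0.0286, which is the lowest that 4 libraries against 4 can give). In the control libraries the totals were 134421 ± 66936 at 1 DAT and 137858 ± 61831 at 0 DAT (exact p = 0.971). Between 200 and 201 tags were detected per 1 DAT heat library and between 195 and 200 per 0 DAT heat library (exact p = 0.0571). Levels below are given as reads, or as RPM, reads per 1000000 miRNA reads after TMM scaling, and changes as log2 fold changes of 1 DAT over 0 DAT with their SE from edgeR's quasi-likelihood test, adjusted over all 202 tags. Because depth moved with the day, reads are also set side by side below for the 2 libraries nearest in depth, pool 1 of 1 DAT heat (127692 reads) and pool 3 of 0 DAT heat (123731 reads).

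On the first day of recovery 4 tags were higher in heat-stressed plants and none was lower, which is 1.98% of the 202 tags (FDR < 0.05). The higher tags were 2 of miR528, the only tag of miR399 and the 5p tag miR166-11-5p of family miR166. At an unadjusted p below 0.05, 20 tags (9.9%) were found, 15 of them higher and 5 lower. In control plants, 0 tags changed over the same day by this test, 0 in each alternative fit including DESeq2 and the likelihood ratio test, and 9 (4.46%) had an unadjusted p below 0.05. For 13 tags (6.44%) the 1 DAT heat and 0 DAT heat libraries did not overlap in RPM, 8 being higher (3.96%) and 5 lower at 1 DAT, against 5 tags (2.48%) without overlap between the control days. The median log2 fold change of all tags was -0.06 in heat. Of all tags, 39.6% had a log2 fold change above 0. The count of 4 became 3 with the plant pool as a block and 2 without 0 DAT heat pool 2, 0 DAT heat pool 4 or 1 DAT heat pool 4. It became 9 (7 higher, 2 lower) by the likelihood ratio test, 7 (all higher) by DESeq2 and 9 (all higher) with miR166 left out of the scaling, and the 4 tags were among those called each time. In the plot of change against level, miR528-1.1-5p stands above every other tag.

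**Figure D1:**
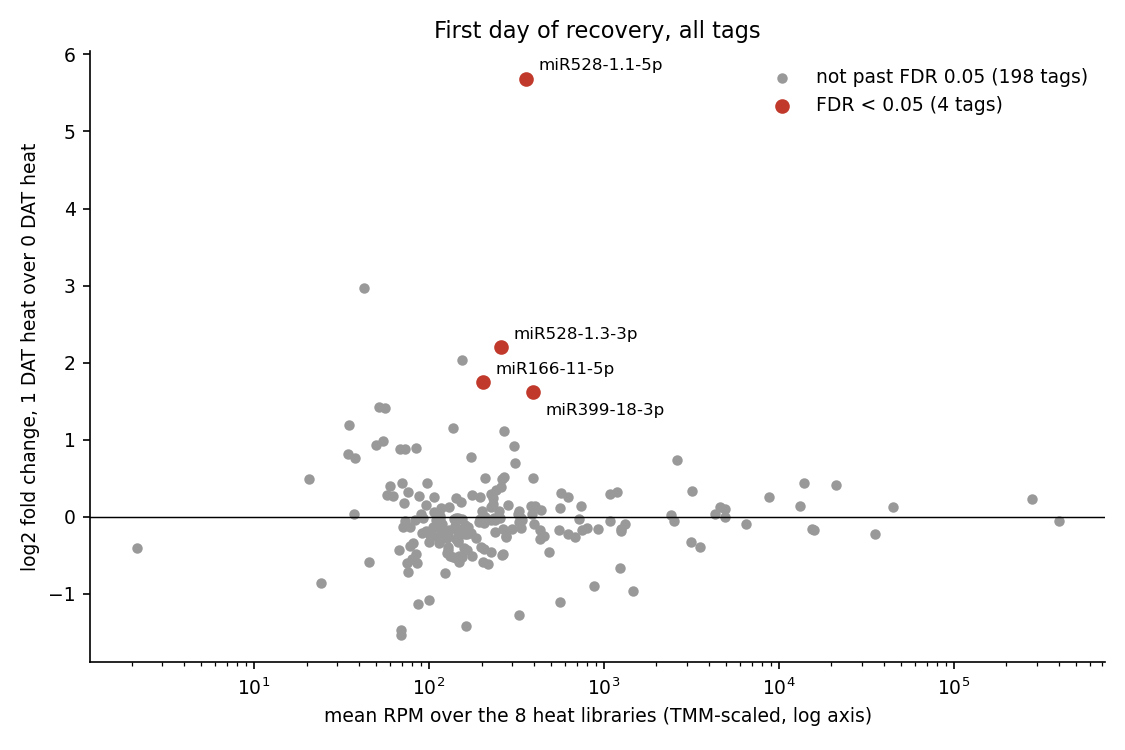
Log2 fold change (1 DAT heat over 0 DAT heat) of each of the 202 tags on the y axis against its mean RPM over the 8 heat libraries on a log x axis. Red points are the 4 tags at FDR < 0.05, led by miR528-1.1-5p at 5.69, and grey points are the 198 others.

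Precision set what could be seen. The SE of the log2 fold change had a median of 0.38 over all tags and of 0.33 over the 122 tags with a mean of 20 reads or more. For 84 tags the interval of 2 SE on either side lay within a 2-fold change in either direction, and for the others a change of that size is not kept out.

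The families that act on copper proteins and oxidases held the largest changes. miR528, a family of monocots, targets transcripts of copper-containing oxidases such as ascorbate oxidase in rice, and miR398 targets copper/zinc superoxide dismutases in Arabidopsis. Of their 7 tags, 2 were higher, none was lower and 5 did not pass the test, where 1.98% of all tags were higher. Both higher tags belong to miR528, whose 5 tags come from a single precursor and partly overlap in sequence. The 7 tags are therefore not independent, and their counts do not stand for a group of separate members. All 7 had a log2 fold change above 0, against 39.6% of all tags, and so they did under each scaling tried. With the plant pool as a block miR528-1.5-5p was at -0.02. The median of the 7 tags was 1.42 (-0.06 over all tags), which is the value of miR398-1.2-3p, a tag that did not pass the test. The control change of these tags had a median of -0.96. Among the miR528 tags, the paper's selected targets, superoxide dismutase and ascorbate oxidase, are given for miR528-1.2-5p only, which did not pass here. The 2 higher tags were miR528-1.1-5p, which has another seed, and miR528-1.3-3p, from the opposite arm. Whether these 2 tags act on the same transcripts was not tested.

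miR528-1.1-5p was read 136, 148, 76 and 65 times in pools 1 to 4 of 1 DAT heat, against 1, 0, 2 and 2 times in the same pools of 0 DAT heat. Each 1 DAT heat library thus held many reads of a tag that was nearly undetected in the same plants a day before, and the groups were far apart. In the 2 libraries nearest in depth it had 136 reads at 1 DAT and 2 reads at 0 DAT. Its level was 701 ± 228 RPM at 1 DAT heat and 13.4 ± 9.38 RPM at 0 DAT heat (SD, n = 4 each), with a log2 fold change of 5.69 ± 0.57 (SE, adjusted p = 6.77e-08). The summed reads were 425 and 5, a ratio of 55.2 per scaled library total with a 95% exact interval of 23.5 to 170.8, which covers counting error only. In bulk leaf RNA, fewer cells with the miRNA and less of it per cell cannot be told apart.

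miR528-1.3-3p, from the opposite arm, was read 62, 117, 29 and 62 times at 1 DAT heat, against 3, 12, 16 and 7 times at 0 DAT heat. Every 1 DAT heat library was above every 0 DAT heat library in RPM, though pool 3 of 1 DAT stood below the other pools. The nearest pair in depth had 62 reads at 1 DAT and 16 at 0 DAT. Levels were 428 ± 136 RPM and 88.7 ± 31.5 RPM, with a log2 fold change of 2.20 ± 0.55 (adjusted p = 0.0233). This call was lost with the plant pool as a block (log2 fold change 2.12, adjusted p = 0.121), with library totals as the only scaling (adjusted p = 0.134), and without any 1 of 0 DAT heat pools 1, 2, 3 and 4 or of 1 DAT heat pool 4 (adjusted p from 0.0509 to 0.105).

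The other tags of the precursor did not pass the test. miR528-1.2-5p, the usual 5p form of miR528 in monocots, had 45, 82, 33 and 62 reads at 1 DAT heat, against 11, 18, 21 and 16 at 0 DAT heat. The groups did not overlap in RPM, at 365 ± 98.3 RPM and 170 ± 12.2 RPM, but the log2 fold change of 1.11 ± 0.31 had an adjusted p of 0.0511. This call turned with the test and the scaling, passing in 6 of 16 alternative fits: the likelihood ratio test (adjusted p = 0.0243), DESeq2 (0.0139), RLE size factors (0.0339), miR166 left out of the scaling (0.00547), filterByExpr (0.0369) and 1 DAT heat pool 3 left out (0.0227). miR528-1.4-3p had 16, 9, 12 and 11 reads at 1 DAT heat and 0, 13, 12 and 1 at 0 DAT heat (log2 fold change 0.44 ± 0.62). miR528-1.5-5p had 22, 15, 5 and 1 reads at 1 DAT heat and 2, 6, 12 and 4 at 0 DAT heat (0.27 ± 0.67), so both of these overlapped widely between the days.

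The makeup of the miR528 reads differed between the days. This value was added after the counts were seen and is formed from a tag already called, so its p-values are no separate support. miR528-1.1-5p gave 48.4%, 39.9%, 49.0% and 32.3% of the miR528 reads in pools 1 to 4 of 1 DAT heat, against 5.88%, 0%, 3.17% and 6.67% at 0 DAT heat. The means were 42.4% ± 7.91 and 3.93% ± 3.02 (SD, n = 4 each, two-sided exact permutation p = 0.0286, and p = 0.125 by flipping signs over the 4 pools, each as low as the test can go). In the control plants the share was 58.4% at 1 DAT and 55.8% at 0 DAT (exact p = 0.8). Summed over its tags, family miR528 was at 1650 ± 377 RPM in 1 DAT heat and at 382 ± 89.6 RPM in 0 DAT heat, a log2 fold change of 2.00 (adjusted p = 1.26e-05 over 37 families). It was 1 of 2 families called (5.41%), with miR399, and both remained called in all 15 alternatives run on families. The family calls reuse the reads of the called tags: miR399 has only 1 tag, and the miR528 sum includes its 2 called tags.

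**Figure D2:**
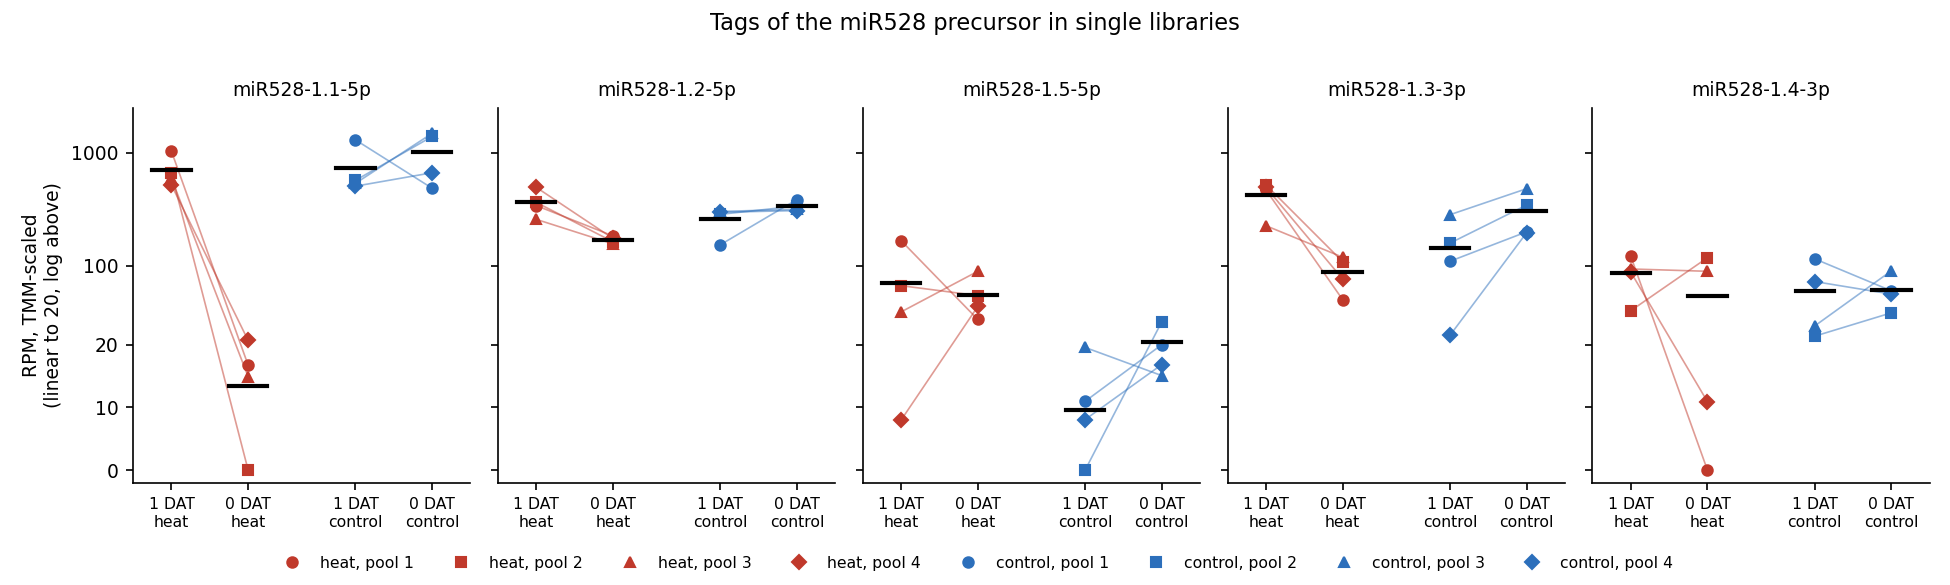
RPM of the 5 miR528 tags in single libraries (y axis linear to 20 and logarithmic above), with lines joining the libraries of a plant pool and black bars for means of 4. In heat, miR528-1.1-5p averaged 701 RPM at 1 DAT and 13.4 RPM at 0 DAT, while in control it averaged 731 RPM and 1012 RPM.

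Neither tag of miR398 passed the test, and their reads came mostly from 1 pool. miR398-1.1-5p, the strand opposite to the usual guide, had 10, 45, 3 and 1 reads at 1 DAT heat, against 0, 1, 3 and 0 at 0 DAT heat (log2 fold change 2.97 ± 1.22, adjusted p = 0.3). miR398-1.2-3p had 5, 40, 6 and 3 reads at 1 DAT heat and 5, 0, 6 and 0 at 0 DAT heat (1.42 ± 1.10, adjusted p = 0.77). In both, pool 2 held most of the 1 DAT heat reads and the groups overlapped.

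Among the families of phosphate and sulfate homeostasis, miR399 rose and miR395 did not pass the test. miR399 targets PHO2, a ubiquitin-conjugating enzyme that limits phosphate uptake and transport in Arabidopsis, and miR395 targets ATP sulfurylases and a sulfate transporter. miR399-18-3p had 111, 80, 84 and 67 reads in pools 1 to 4 of 1 DAT heat, against 11, 21, 31 and 15 at 0 DAT heat. All 4 pools were higher at 1 DAT, without overlap, and the nearest pair in depth had 111 reads at 1 DAT and 31 at 0 DAT. The level was 598 ± 205 RPM at 1 DAT heat and 192 ± 28.2 RPM at 0 DAT heat, with a log2 fold change of 1.62 ± 0.32 (adjusted p = 0.00387). It passed the threshold in all 16 alternative fits, with log2 fold changes of 1.40 to 1.80. The tags of miR395 had log2 fold changes of -0.86 to -0.03, and most of their heat reads were in pool 2 on both days. Of the 4 tags of both families 1 was higher, none was lower and 3 did not pass, where 1.98% of all tags were higher.

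The families that target transcription factors had 55 tags, of which 1 was higher, none was lower and 54 did not pass the test, a share close to the 1.98% of all tags. Their median log2 fold change was -0.03, against -0.06 over all tags. The tag that rose was miR166-11-5p, from the arm opposite to the abundant 3p tags of miR166, which target class III HD-ZIP factors of leaf polarity and vascular development. It had 28, 55, 45 and 57 reads at 1 DAT heat, against 8, 6, 18 and 5 at 0 DAT heat, and all 4 pools were higher at 1 DAT without overlap in RPM. In the 2 libraries nearest in depth it had 28 reads at 1 DAT and 18 at 0 DAT, a smaller gap than in the means. These were 316 ± 110 RPM and 94.3 ± 45.9 RPM, with a log2 fold change of 1.75 ± 0.39 (adjusted p = 0.00878). The call held with the plant pool as a block (adjusted p = 0.0437) and was lost without 0 DAT heat pool 2 (adjusted p = 0.0509), 0 DAT heat pool 4 (0.0687) or 1 DAT heat pool 4 (0.0571).

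The most abundant 3p tags of miR166 did not pass the test. miR166-9-3p, found in the same precursor, was at 302371 RPM in the mean of 1 DAT heat and at 257974 RPM in 0 DAT heat (log2 fold change 0.23 ± 0.25, adjusted p = 0.971), and miR166-4.1-3p, which starts 1 base earlier, had a log2 fold change of -0.06 ± 0.24. The 3p tags cannot be assigned to single loci, since miR166-9-3p is listed at 15. A second 5p tag, miR166-8.2-5p, was at 386 ± 134 RPM in 1 DAT heat and 236 ± 49.3 RPM in 0 DAT heat (log2 fold change 0.69 ± 0.26, adjusted p = 0.216), and passed only with miR166 left out of the scaling (adjusted p = 0.0335). The 5p tags of the family together held 0.105%, 0.115%, 0.105% and 0.104% of its reads at 1 DAT heat, against 0.0614%, 0.0528%, 0.0710% and 0.0683% at 0 DAT heat. Every 1 DAT heat library lay above every 0 DAT heat library in this share (two-sided exact permutation p = 0.0286, and p = 0.125 by flipping signs over pools, each as low as the test can go), a value added after the counts were seen and to which the called tag contributes. In control plants it was 0.136% at 1 DAT and 0.145% at 0 DAT (exact p = 0.857). Not every 5p tag of the family rose, as miR166-5.3-5p had a log2 fold change of -0.20 in heat.

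Of the other transcription factor families, miR169 had the lowest values. It targets NF-YA subunits of the CCAAT-binding complex. Of its 8 tags 1 was above 0 in log2 fold change, also under each scaling tried, with a median of -0.99, and none passed the test. miR169-34-3p, chosen after its values were seen, had 39, 42, 25 and 11 reads at 1 DAT heat and 19, 70, 50 and 48 at 0 DAT heat. Its libraries did not overlap in RPM, at 192 ± 85.0 RPM and 463 ± 145 RPM (log2 fold change -1.28 ± 0.49, adjusted p = 0.251). The family summed to 2148 ± 798 RPM at 1 DAT heat and 3245 ± 873 RPM at 0 DAT heat (log2 fold change -0.69, adjusted p = 0.534). In control its sum changed by 0.02.

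miR159 and miR319 are related families that target GAMYB-like MYB factors and TCP factors of leaf growth. Their 3 tags had log2 fold changes of 0.32 to 0.92 and none passed the test. Summed per family, miR159 changed by 0.41 in heat and 0.39 in control, and miR319 by 0.45 and 0.44. miR159g-1 had 58, 84, 44 and 56 reads at 1 DAT heat and 9, 35, 22 and 19 at 0 DAT heat, without overlap in RPM (0.92 ± 0.33, adjusted p = 0.187). miR319g-1 was at 248 ± 51.5 RPM and 172 ± 19.9 RPM (0.50 ± 0.27, adjusted p = 0.61).

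No tag of the remaining families of this group passed the test over the day in heat. miR156, which targets SPL factors of phase change, summed to 41209 ± 22629 RPM at 1 DAT heat and 30957 ± 10585 RPM at 0 DAT heat (log2 fold change 0.40, adjusted p = 0.734). In control its sum changed by 0.41 over the same day. In its most abundant tag, miR156-1.1-5p, pools 1 to 4 were at 24826, 13512, 14132 and 44962 RPM at 1 DAT heat and at 26956, 11818, 14363 and 20061 RPM at 0 DAT heat, so that pool 4 alone stood apart. miR396, which targets growth-regulating factors, had a log2 fold change of -0.28 as a family in heat and of 0.63 in control. Its tag miR396-5-5p was at 32559 ± 10998 RPM and 38187 ± 5479 RPM in heat (-0.23 ± 0.35). The 3 tags of miR171, a regulator of GRAS factors, ran from -0.22 to -0.16 and the 8 tags of miR167, which targets auxin response factors, from -1.102 to 0.13. Within miR167 the tags of lowest change were miR167-1-5p (-1.102 ± 0.44, adjusted p = 0.265) and miR167-14-3p (-0.97 ± 0.55, adjusted p = 0.61).

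miR393, which targets the TIR1/AFB auxin receptors, and miR394, which targets an F-box protein of leaf development, had 5 tags between them. All were below 0, from -0.39 to -0.01 with a median of -0.16, and none passed the test. With miR166 left out of the scaling 3 of the 5 were above 0, so no direction is given for this group.

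The families known from wheat and other cereals (miR9662, miR9664, miR9669, miR9670 and miR9772) had 22 tags, none of which passed the test, with a median log2 fold change of -0.02. The nearest to it was miR9662-1.3-5p, the 5p strand of the miR9662 hairpin, with 551, 556, 341 and 468 reads at 1 DAT heat and 108, 196, 304 and 180 at 0 DAT heat. Its libraries did not overlap in RPM (3265 ± 827 RPM and 1954 ± 223 RPM), and the log2 fold change was 0.74 ± 0.22 (adjusted p = 0.0634). It passed in 7 of 16 alternative fits, with adjusted p-values of 0.00306 by DESeq2, 0.00808 with miR166 left out of the scaling, 0.0418 with RLE size factors, 0.0379 with filterByExpr, 0.0490 by the likelihood ratio test, and 0.0428 and 0.0479 without 1 DAT heat pools 2 and 3. With miR166 left out of the scaling miR9772-6-5p passed too (log2 fold change 0.97, adjusted p = 0.0335). On the 3p arm, miR9662-1.1-3p was at 9575 ± 910 RPM and 8001 ± 2383 RPM (log2 fold change 0.26 ± 0.26, adjusted p = 0.961).

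The families with repeat-like precursors (miR1118 to miR1137 and miR1439), whose tags can match many loci, held 101 tags and none passed the test. Of these, 33 were above 0 in log2 fold change and the median was -0.14, which moved to 0.04 with miR166 left out of the scaling. miR1120-2337-3p, a tag of 18 nt, had 5, 24, 15 and 11 reads at 1 DAT heat and 15, 35, 21 and 21 at 0 DAT heat (log2 fold change -1.42 ± 0.41, adjusted p = 0.0634). All 4 pools were lower at 1 DAT and the groups did not overlap in RPM. It passed in 1 of 16 alternative fits, the likelihood ratio test (adjusted p = 0.0205).

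A pair of miR1135 tags had values of opposite sign. miR1135-1458-3p, with 764 listed loci, had 4, 91, 22 and 50 reads at 1 DAT heat and 2, 13, 7 and 3 at 0 DAT heat (log2 fold change 2.03 ± 0.60, adjusted p = 0.0634). Pool 1 had few reads of it on both days, and the groups overlapped. miR1135-1403-5p, with 413 listed loci, had 2, 13, 3 and 4 reads at 1 DAT heat and 12, 8, 12 and 6 at 0 DAT heat (-1.53 ± 0.48, adjusted p = 0.0906), without overlap in RPM. Neither passed the test. miR1135-1458-3p passed in 4 of 16 alternative fits and miR1135-1403-5p in 2.

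miR1121-18-3p, chosen after its values were seen, did not pass the test over the day and differed from control on both days. It had 24, 29, 18 and 16 reads at 1 DAT heat and 18, 24, 28 and 10 at 0 DAT heat (log2 fold change -0.51 ± 0.45, adjusted p = 0.882), against 2, 2, 0 and 0 reads at 1 DAT control and 1, 2, 0 and 1 at 0 DAT control. Its log2 fold change of heat over control was 4.13 ± 0.66 at 1 DAT (adjusted p = 0.000297) and 4.68 ± 0.66 at 0 DAT (adjusted p = 1.86e-05).

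The 8 tags of the small families (miR1318, miR2006, miR2012, miR2020, miR5062, miR5064 and miR530) ran from -0.32 to 1.16 and none passed the test. By RPM over 1 DAT heat and 0 DAT heat, the most abundant tag of each family was taken. Of these 37 tags 2 passed, where 1.98% of all tags did. The 2 were miR528-1.1-5p and miR399-18-3p, and the other 35 ran from -0.90 for miR169-45-3p to 1.42 for miR398-1.2-3p. miR528-1.1-5p was the most abundant miR528 tag at 1 DAT heat but not at 0 DAT heat, and miR399 has no other tag. This count is therefore not independent of the comparison. The plot of change by group of families shows the tags past the test in 3 of the 7 groups.

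**Figure D3:**
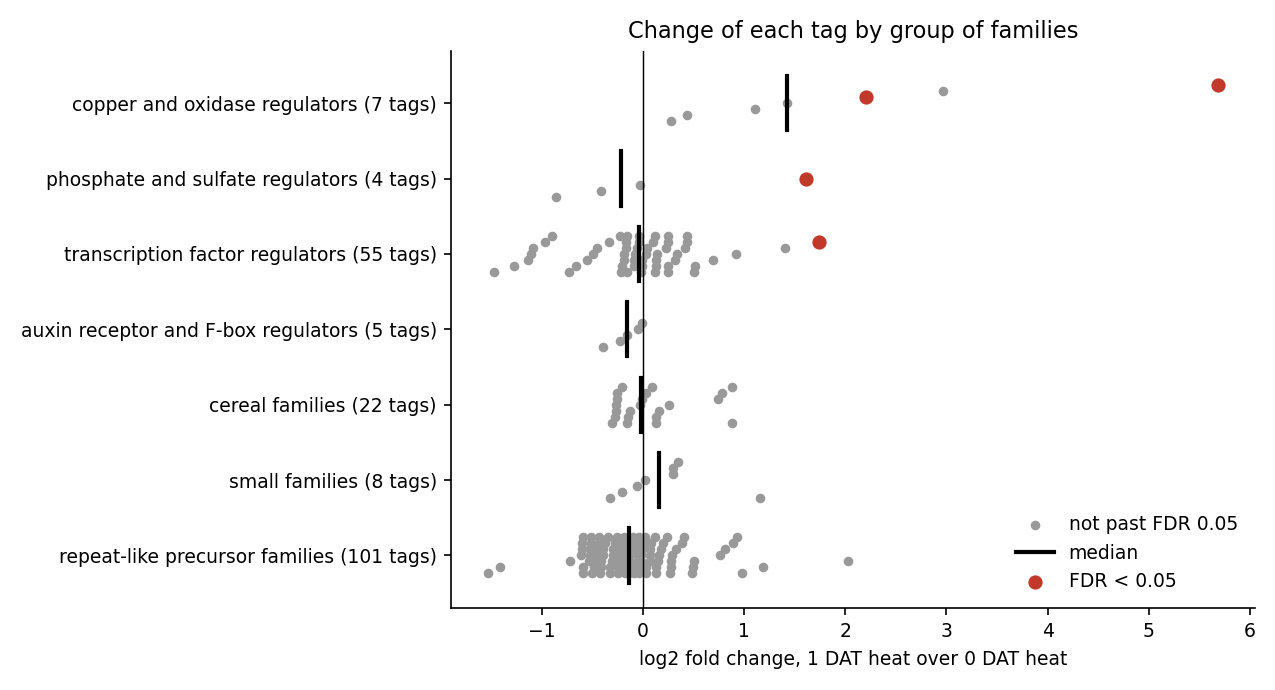
Log2 fold change (1 DAT heat over 0 DAT heat, x axis) of each tag by group of families, with the black bar at the group's median. Red points are tags at FDR < 0.05. The copper and oxidase group has its median at 1.42 and the other groups between -0.22 and 0.16.

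By length, 1 of the 21 tags of 20 nt and 3 of the 116 tags of 21 nt were higher, and none of 18 or 19 nt (17 tags), of 22 or 23 nt (18 tags) or of 24 nt (30 tags). With 1.98% of all tags higher, these counts set no length class apart. The median log2 fold change was -0.31 for tags of 18 or 19 nt, -0.01 for 20 nt, -0.03 for 21 nt, 0.01 for 22 or 23 nt and -0.22 for 24 nt. Tags of 18 or 19 nt held 0.431%, 0.597%, 0.357% and 0.495% of the reads at 1 DAT heat, against 0.522%, 0.749%, 0.576% and 0.670% at 0 DAT heat. The share was lower at 1 DAT in all 4 pools, but the groups overlapped, at 0.470% ± 0.102 and 0.629% ± 0.100 (SD, n = 4 each, two-sided exact permutation p = 0.0857, or 0.6 when adjusted over 7 shares). In control plants it was 0.389% at 1 DAT and 0.289% at 0 DAT (exact p = 0.314).

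Tags of 21 nt, the usual product of the enzyme DCL1, held 91.8% ± 0.996 of the reads at 1 DAT heat and 91.8% ± 0.539 at 0 DAT heat (exact p = 1). Family miR166 held 79.4% ± 2.18 and 78.6% ± 3.14 (exact p = 0.743), and tags of the 5p arm 15.6% ± 1.56 and 16.1% ± 2.16 (exact p = 0.771). In control plants miR166 held 75.2% at 1 DAT and 79.2% at 0 DAT, and the 5p arm 19.5% and 15.7% (exact p = 0.0286 each, and 0.1 when adjusted over the 7 shares). None of the 7 shares passed after adjustment in heat or in control, the smallest adjusted p being 0.6 in heat and 0.1 in control. By arm, 2 of 103 tags of the 5p arm and 2 of 87 of the 3p arm were higher, both shares close to the 1.98% of all tags, and the medians were -0.14 and -0.05.

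Of the 202 tags, 32 are shortened forms, equal to the start of another tag that runs on at its 3′ end, and the log2 ratio of the short tag to the longer tag was compared in each pair with 0.5 reads added. The ratio was lower at 1 DAT heat in 19 pairs and higher in 13, with a median difference of -0.14. By exact permutation tests, 2 pairs had an unadjusted p of 0.0286, and 0 passed after adjustment over the 32 pairs (smallest adjusted p = 0.457). They were miR166-5.1-3p (18 nt) to miR166-8.1-3p (21 nt), with a mean log2 ratio of -5.62 at 1 DAT heat and -4.83 at 0 DAT heat, and miR167-1-5p (21 nt) to miR167-2-5p (22 nt), with -5.30 and -4.45. In both pairs the ratio was lower at 1 DAT in all 4 pools.

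To see whether the change was that of the day alone, the change in heat was compared with the change in control from 0 to 1 DAT in the same fit. It differed for 5 tags (2.48%), with 4 higher in heat and 1 lower, and 8.91% of tags had an unadjusted p below 0.05. For miR528-1.1-5p the log2 fold change of the day was 5.69 ± 0.57 in heat and -0.45 ± 0.37 in control, a difference of 6.14 ± 0.70 (adjusted p = 7.26e-07). The day changed miR528-1.3-3p by 2.20 ± 0.55 in heat, against -1.07 ± 0.52 in control, where it did not pass the test (difference 3.28 ± 0.76, adjusted p = 0.0207). The control values of both tags lay below 0 and did not pass the test.

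For miR166-11-5p and miR399-18-3p the control change was near 0, at -0.14 ± 0.33 and -0.07 ± 0.32, and the differences were 1.88 ± 0.51 and 1.69 ± 0.46 (adjusted p = 0.0492 each). miR167-1-5p was the tag with a lower change in heat, at -1.102 ± 0.44 in heat and 1.18 ± 0.45 in control (difference -2.28 ± 0.63, adjusted p = 0.0492). It had 33, 70, 43 and 66 reads at 1 DAT heat and 66, 59, 136 and 38 at 0 DAT heat, and 45, 50, 19 and 144 reads at 1 DAT control and 33, 46, 12 and 31 at 0 DAT control. Neither change passed by itself, and the 1 DAT control reads rest mainly on pool 4.

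Of these 5 differences, that of miR528-1.1-5p passed in all 24 alternative fits and the others did not. With the plant pool as a block it was the only 1 left (adjusted p = 4.25e-05), and the others had adjusted p-values of 0.0969 to 0.186. The 4 higher and 1 lower became 3 and 0 with RLE size factors, 1 and 0 with library totals alone and 7 and 0 with miR166 left out of the scaling. Leaving out 1 library gave 1 tag without 0 DAT control pool 3 or 0 DAT heat pool 1, 2 tags without 0 DAT control pool 1 or 2, 0 DAT heat pool 2, 1 DAT control pool 2 or 1 DAT heat pool 3, 3 tags without 0 DAT heat pool 3 or 4, and 4 to 6 tags without any other library.

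**Figure D4:**
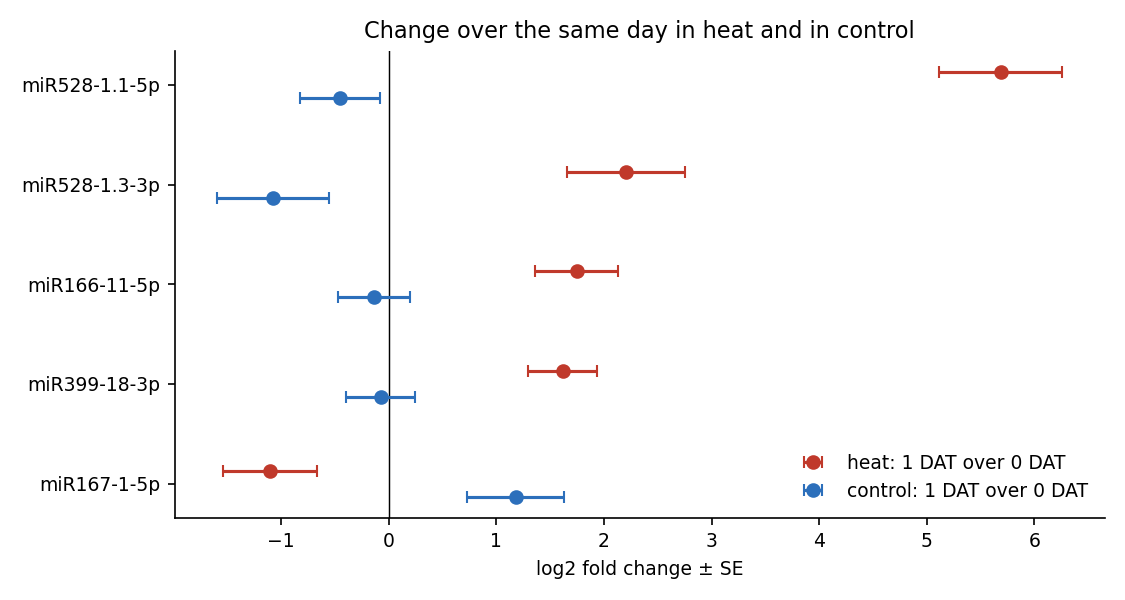
Log2 fold change of 1 DAT over 0 DAT with its SE (x axis) in heat (red) and in control (blue) for the 5 tags whose change differed between the treatments. miR528-1.1-5p is at 5.69 in heat and -0.45 in control, and miR167-1-5p at -1.102 in heat and 1.18 in control.

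The levels of these tags after the first day stood in different places relative to control. The comparisons of heat with control at 1 DAT and at 0 DAT use the same heat libraries as the change over the day, so their values are given side by side and are not independent of it. In them 8.91% of tags were higher and 8.42% lower in heat at 0 DAT, and 6.44% higher and 4.95% lower at 1 DAT. miR528-1.1-5p was at 701 ± 228 RPM in 1 DAT heat and 731 ± 384 RPM in 1 DAT control (log2 fold change of heat over control -0.07 ± 0.37, adjusted p = 0.901), after -6.21 ± 0.57 at 0 DAT (adjusted p = 1.1e-08). miR166-11-5p was at 316 ± 110 RPM in 1 DAT heat and 439 ± 202 RPM in 1 DAT control (-0.48 ± 0.34, adjusted p = 0.463), after -2.36 ± 0.39 at 0 DAT (adjusted p = 0.000138). Both tags were thus below control at the end of the stress and within the spread of the control libraries a day later.

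miR399-18-3p and miR528-1.3-3p were above control at 1 DAT. miR399-18-3p was at 598 ± 205 RPM in 1 DAT heat and 253 ± 138 RPM in 1 DAT control (1.23 ± 0.31, adjusted p = 0.0175), whereas at 0 DAT heat over control was -0.45 ± 0.33 (adjusted p = 0.446). miR528-1.3-3p was at 428 ± 136 RPM in 1 DAT heat and 144 ± 108 RPM in 1 DAT control (1.60 ± 0.51, adjusted p = 0.0461), after -1.67 ± 0.56 at 0 DAT (adjusted p = 0.0374).

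Over the 3 days, miR528-1.1-5p was at 13.4, 701 and 871 RPM in heat at 0, 1 and 4 DAT, and miR399-18-3p at 192, 598 and 459 RPM. miR166-11-5p was at 94.3, 316 and 287 RPM and miR528-1.3-3p at 88.7, 428 and 128 RPM. At 4 DAT the first of these stayed near its level of 1 DAT, while miR528-1.3-3p was near its level in 4 DAT control, 139 ± 109 RPM. These later levels are descriptions, with no test.

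**Figure D5:**
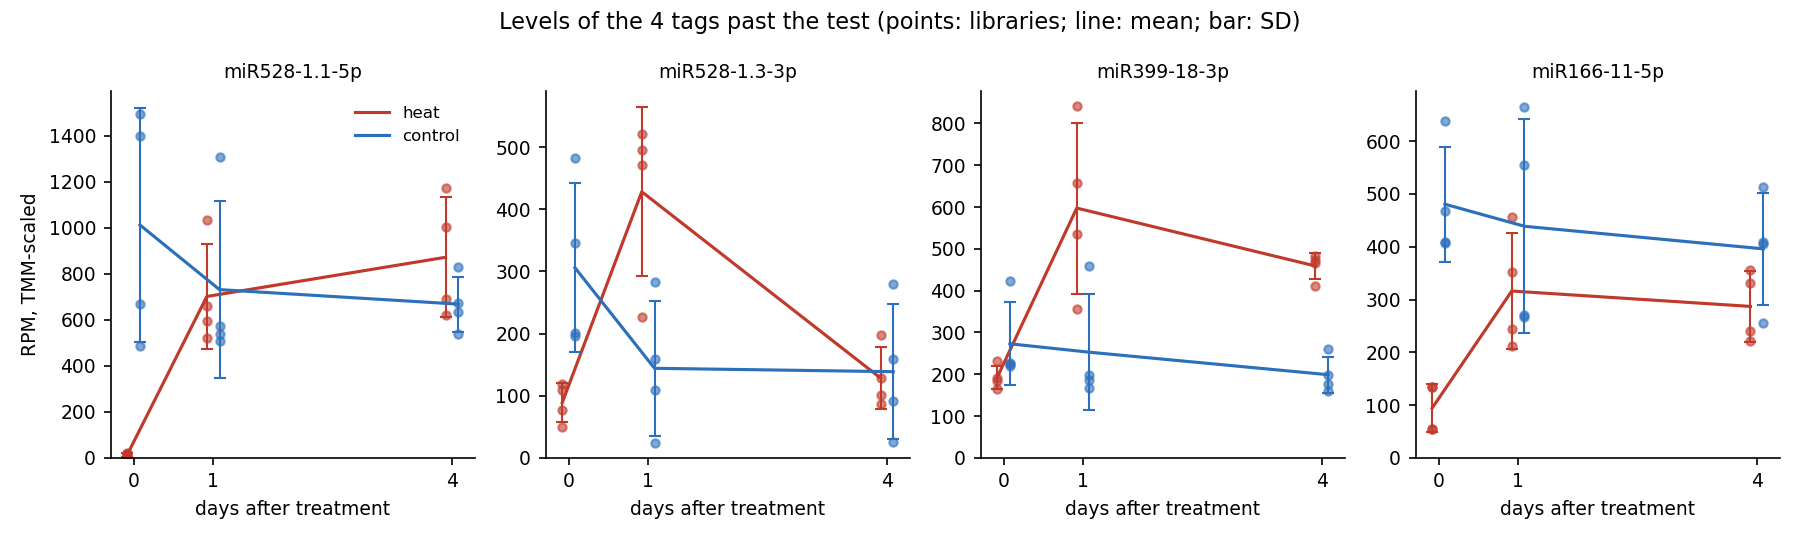
RPM (y axis) of the 4 tags past the test at 0, 1 and 4 days after treatment in heat (red) and control (blue), with a point per library, lines through the means of 4 and bars of 1 SD. At 1 DAT, miR399-18-3p averaged 598 RPM in heat and 253 RPM in control, and miR528-1.1-5p 701 RPM and 731 RPM.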

How the data were processed

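Small RNA was sequenced from pooled leaf RNA in 24 libraries. The authors trimmed the reads, kept 18 to 24 nt, and annotated tags above a minimum abundance in any library that matched precursor loci in IWGSC RefSeq v1.0 perfectly (tools per the submitters' notes: FastQC and Bowtie2). The deposited values are raw counts per tag, and their totals are miRNA reads, not all reads of a library. Names, precursors and locus numbers are those of the study's lists, matched by sequence. Of the deposited tags, 35 are the reverse complement of the listed sequence and were turned around.

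All 24 libraries were fitted as 6 groups with edgeR 4.0.16 (TMM, glmQLFit and glmQLFTest, no filter, no block), with Benjamini-Hochberg adjustment over 202 tags and an FDR threshold of 0.05. SE is the log2 fold change divided by the root of F. Counts summed per family were fitted likewise, and DESeq2 1.42.0 served as an alternative. Single values per library were compared by exact permutation tests (scipy 1.17.1, Python 3.11.15). The fit was tested on simulated data.

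By the study's methods all plants were sampled on each day, so a pool number was read as 1 set of plants throughout. Across 122 tags with a mean of 20 reads or more, deviations of same-numbered heat libraries at 1 and 0 DAT correlated with r of 0.243, 0.396, 0.122 and -0.163. Between libraries of different pools r ran from -0.409 to 0.239. The ranges overlap, so these values do not settle the pairing. No replicate pair differed by less than sampling noise. Which sequencing runs held which library was not known. The exact interval of summed reads covers counting error only.

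Members and lists were chosen with earlier results of these data known. Named were all tags called in heat, up to 10 called for heat minus control, the 5 uncalled tags of smallest p, the most abundant tag of each family, and tags of the conserved families, miR9662 and miR9772 by family.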

Additional observations from a re-analysis of the deposited data

Results flagged for a closer look

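Among 78 groups of 4 libraries checked, 5 had a single library far from the others by Dixon's test at its 95% limit. That limit marks about 1 in 20 groups when they are independent. Some of these groups share reads, and whether the number differs from chance was not tested. In 1 DAT heat, pool 3 of miR528-1.3-3p stood low at 227 RPM. Also in 1 DAT heat, pool 2 of miR398-1.2-3p stood high at 178 RPM, the 5p arm's share of reads stood low at 13.2% in pool 3, the share of miR166 reads in 5p tags stood high at 0.115% in pool 2, and 1 library had 200 tags detected where the others had 201.

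The change from 0 to 1 DAT differed between heat and control, by the test of the difference, for miR528-1.1-5p (6.14 on the log2 scale, heat minus control), miR528-1.3-3p (3.28), miR166-11-5p (1.88), miR399-18-3p (1.69) and miR167-1-5p (-2.28).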

How the results depend on the processing

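Over the first day of recovery 4 tags passed in heat. The count was 9 by the likelihood ratio test, 7 by DESeq2 and 9 with miR166 left out of the scaling, 3 with the replicate block (plant pool), and 2 to 6 with 1 library left out. miR528-1.1-5p and miR399-18-3p passed in all 16 alternatives, miR166-11-5p in 13 and miR528-1.3-3p in 9. Of uncalled tags, miR9662-1.3-5p passed in 7, miR528-1.2-5p in 6, miR1135-1458-3p in 4, miR1135-1403-5p in 2, and miR1120-2337-3p, miR166-8.2-5p and miR9772-6-5p in 1 each. Families called numbered 2, and control tags 0, in each alternative run.

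The count of 5 tags whose change differed between heat and control was 9 by the likelihood ratio test, 8 by DESeq2, 8 with filterByExpr, 3 with RLE size factors, 2 with only the libraries compared, 1 with library totals alone, 1 with the replicate block and 1 to 6 with 1 library left out. The cause of these differences was not tested.

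Leaving miR166 out of the scaling moved the median of all tags to 0.12, a shift of 0.18, turned miR166-4.1-3p to 0.11 and miR167-2-5p to 0.026, and put 63.9% of tags above 0. The replicate block turned miR528-1.5-5p to -0.022. With 1 library left out, log2 fold changes ran from -0.51 to 0.63 for miR528-1.5-5p, from -0.20 to 0.14 for miR166-4.1-3p and from -0.065 to 0.66 for miR156-1.1-5p. Differences in share, in percentage points, ran from -0.486 to 0.267 for 21 nt, from -0.494 to 2.06 for miR166 and from -1.47 to 0.272 for the 5p arm. Outside miR166 the share of 18 and 19 nt tags differed by -0.272 (exact p = 0.0286, unadjusted and the lowest that 4 libraries against 4 can give). Over all reads the exact p of this share was 0.0857, or 0.6 when adjusted over 7 shares. The difference in miRNA reads of 50709 has an exact p of 0.125 with the replicate block, the lowest 4 pools allow, and was 44209 to 62470 with 1 library left out (exact p = 0.0571, the lowest that 3 against 4 allow). Depth limits the 80 tags with a mean under 20 reads, whose median SE was 0.46.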
